A study of Mus musculus with 6 samples.

Results

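The insulin receptor, insulin receptor substrate (IRS) and FOXO genes described here are 10 of the 57180 genes listed for mouse kidney. They are the receptors Insr and Igf1r, the substrates Irs1 and Irs2, the kinase Akt2, the transcription factors Foxo1, Foxo3 and Foxo4, and the binding proteins Igfbp1 and Igfbp4. Each was found by its symbol, and all 10 passed the filter on low counts. Irs2 was chosen by its measured level, which was higher after nanoplastic in this same comparison, so its difference is given as a description without a test. The others were listed for their place in the pathway, with earlier results of these data known.

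Nanoplastic mice were wild-type male C57BL/6J animals given cationic polystyrene nanoparticles by mouth at 200 mg/kg once daily for 6 weeks. Vehicle mice, of the same strain, sex and genotype, are labelled as given deionized water (0 mg/kg). All were 7 weeks old when obtained, and each group had 3 mice with 1 library of total kidney RNA each. Libraries held 19408534 to 23793640 expected counts in nanoplastic and 23420454 to 26292760 in vehicle mice.

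Insulin and insulin-like growth factors bind receptor tyrosine kinases, which phosphorylate the IRS adaptors. These recruit phosphoinositide 3-kinase, and the kinase AKT that is switched on downstream phosphorylates FOXO factors and keeps them out of the nucleus. When insulin signalling is low, as in fasting, nuclear FOXO factors drive genes such as Irs2 and Igfbp1 in liver. In the kidney, insulin acts on the tubules, where it restrains glucose production in the proximal tubule and promotes sodium reabsorption.

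The FOXO-responsive element described for the Igfbp1 promoter has the core CAAAACA, and the letters before the start of transcription are shown for the 3 listed genes that hold it. RefSeq promoters (GRCm38.p6) were found for 8 of the 10 genes, at 11 starts, and the 250 bases before each start were searched on both strands. This core, which reads TGTTTTG on the other strand, stood in the promoters of Irs1, Irs2 and Igfbp1, and in 5.56% of all 32841 promoters of the same length. The FOXO core GTAAACA, which reads TGTTTAC on the other strand, stood in none of the 11 and in 3.17% of all. Each sequence runs 5′ to 3′ on the strand of the gene, with matches to the first core on either strand in capitals.
Irs2, chr8:11008930-11009179, minus strand: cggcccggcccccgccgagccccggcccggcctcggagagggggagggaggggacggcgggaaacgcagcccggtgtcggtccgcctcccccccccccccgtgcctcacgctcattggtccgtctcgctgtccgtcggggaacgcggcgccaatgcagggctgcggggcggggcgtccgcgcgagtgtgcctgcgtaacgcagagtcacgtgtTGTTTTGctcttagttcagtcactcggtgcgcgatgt
Igfbp1, chr11:7197537-7197786, plus strand: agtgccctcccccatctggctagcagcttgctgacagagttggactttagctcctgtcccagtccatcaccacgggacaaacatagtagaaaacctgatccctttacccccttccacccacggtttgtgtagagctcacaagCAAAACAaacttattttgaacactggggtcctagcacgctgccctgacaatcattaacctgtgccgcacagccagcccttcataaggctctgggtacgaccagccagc
Irs1, chr1:82291440-82291689, minus strand: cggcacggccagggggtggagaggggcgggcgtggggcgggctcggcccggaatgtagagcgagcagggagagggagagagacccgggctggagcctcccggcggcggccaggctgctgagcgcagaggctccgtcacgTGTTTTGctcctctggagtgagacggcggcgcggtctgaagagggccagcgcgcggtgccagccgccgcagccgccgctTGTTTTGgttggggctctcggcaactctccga

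In Irs2 the match lay 37 to 31 bases before the start, in Igfbp1 108 to 102 bases before it, and Irs1 had matches at 111 to 105 and at 32 to 26 bases. The promoters differed in composition, with 72.8% G and C in Irs2, 72.4% in Irs1 and 53.2% in Igfbp1, against a median of 52.4% over all promoters. The core was taken from the element described for Igfbp1, so its match there follows from that choice. A match of 7 letters is a description of the sequence and does not show binding.

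Irs2 and Igfbp1 were the 2 genes of the list with about 2-fold higher mean levels in nanoplastic kidneys, and the other 8 had fitted differences of 1.01-fold to 1.13-fold. Levels are in CPM, counts scaled to a common library size with the trimmed mean of M values (TMM), unless given in TPM, which is also scaled to transcript length. Leaving Irs2 aside, 0 of the 9 other genes passed edgeR's quasi-likelihood test with Benjamini-Hochberg adjustment at 0.05, and 0.0% of all 18092 genes tested did. At an unadjusted p under 0.05 there was 1 of 9, Igfbp1, which was higher, where 3.8% of all genes were higher and 7.42% differed in either direction. DESeq2 and limma-voom also called 0 of the 9 after adjustment. DESeq2 called 0.44% of the 12496 genes to which it gave an adjusted p, and limma-voom 0.0% of all 18092.

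**Figure D1:**
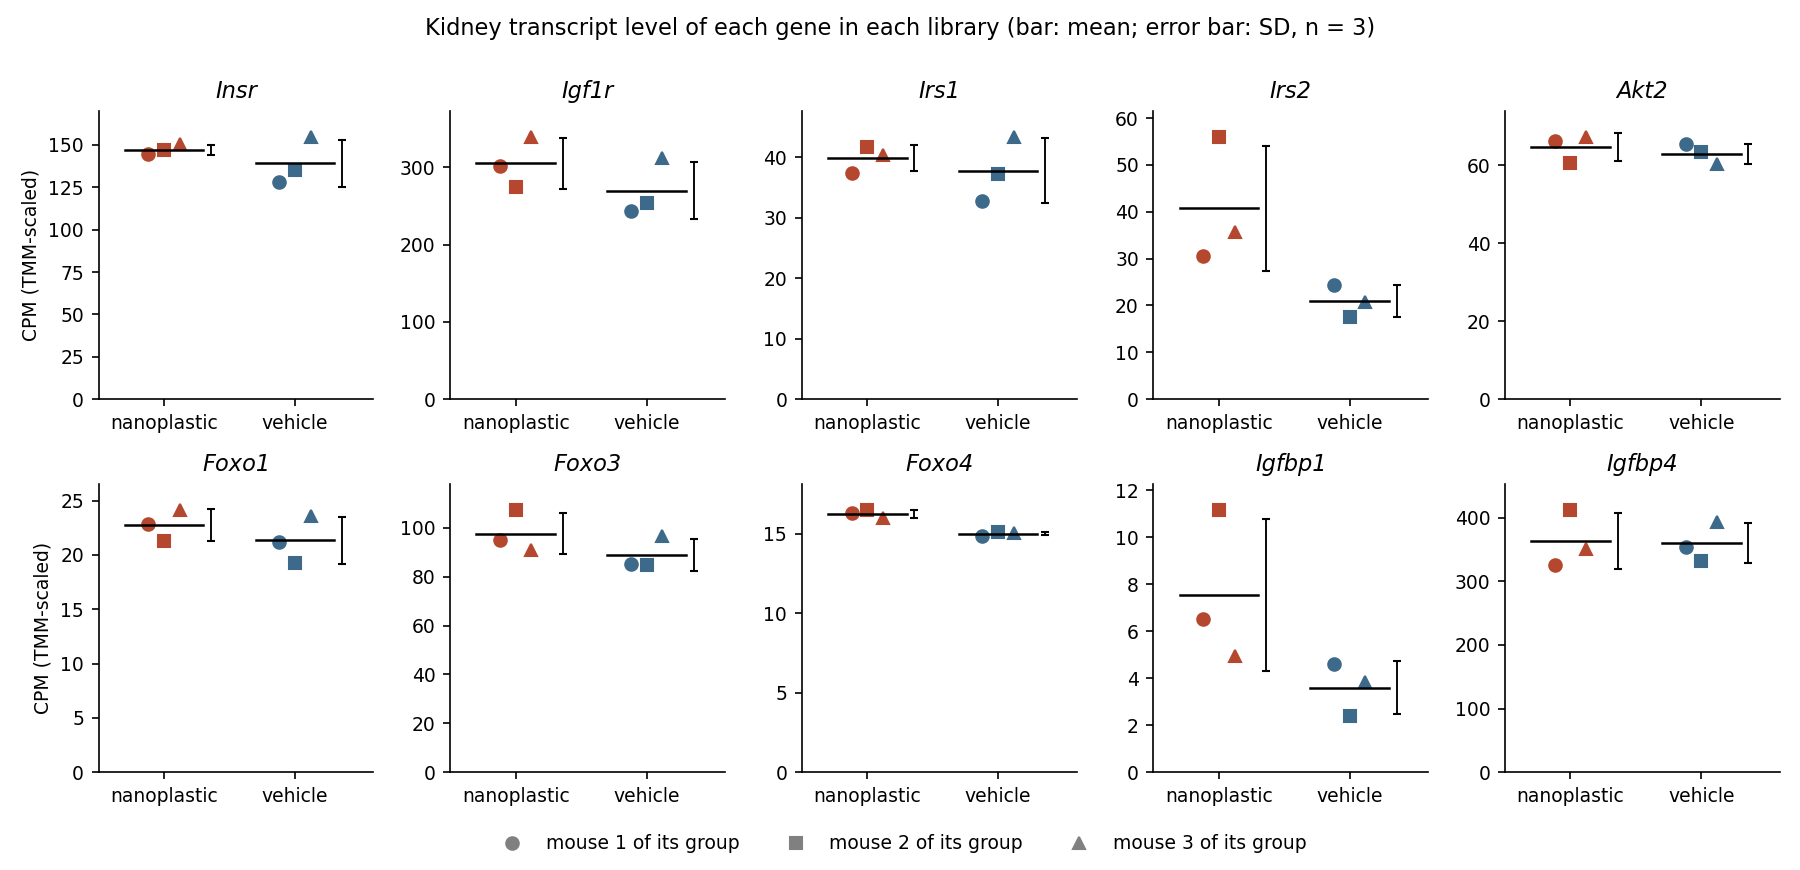
Level of each of the 10 genes in CPM (vertical axes start at 0), with 1 point per mouse, nanoplastic in red and vehicle in blue; bars are means and error bars SD (n = 3). The nanoplastic points lie above all vehicle points for Irs2, Igfbp1 and, by a small margin, Foxo4.

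Irs2 (ENSMUSG00000038894) encodes an adaptor that links the insulin receptor to phosphoinositide 3-kinase. It measured 30.7, 55.9 and 35.7 CPM in nanoplastic mice 1, 2 and 3, against 24.3, 17.6 and 20.8 CPM in vehicle mice 1, 2 and 3. Every nanoplastic library was above every vehicle library, and nanoplastic 2 stood well above the others of its group. The means were 40.8 ± 13.4 CPM in nanoplastic and 20.9 ± 3.36 CPM in vehicle (SD, n = 3 each), a fitted log2 fold change of 0.96 (SE 0.20). The fitted values rested on 686 to 1340 expected counts per nanoplastic library and 406 to 624 per vehicle library. Without nanoplastic 2 the log2 fold change was 0.659, the lowest over all alternatives, and the highest was 1.138, without nanoplastic 1. An annotated gene on the opposite strand, 9530052E02Rik, overlaps Irs2 and had 1 to 10 counts in nanoplastic and 1 to 3 in vehicle libraries.

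Its paralog Irs1 (ENSMUSG00000055980), the adaptor best known from muscle and fat, showed no such separation. It measured 37.4, 41.6 and 40.4 CPM in nanoplastic mice, against 32.7, 37.2 and 43.3 CPM in vehicle mice. The highest of the 6 libraries was a vehicle one, and the groups overlapped. The log2 fold change was 0.08 (95% interval -0.14 to 0.30, edgeR adjusted p = 0.876) and turned to -0.018 without vehicle 1. Per length, Irs2 made up 54.5%, 66.3% and 56.3% of the summed Irs1 and Irs2 TPM in nanoplastic mice, against 52.1%, 40.8% and 41.2% in vehicle mice. Irs2 was thus the more abundant substrate in all 3 nanoplastic libraries and in vehicle 1, and Irs1 in vehicle 2 and 3. That share contains the Irs2 level for which the gene was chosen, and was not tested.

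Igfbp1 (ENSMUSG00000020429) encodes a secreted protein that binds insulin-like growth factors, and its transcription in liver is repressed by insulin. It measured 6.54, 11.2 and 4.94 CPM in nanoplastic mice 1, 2 and 3, against 4.60, 2.38 and 3.82 CPM in vehicle mice 1, 2 and 3. The groups did not overlap, but nanoplastic 3 was close to vehicle 1. Groups without overlap and with nanoplastic higher were seen in 2 of the 9 genes tested, Igfbp1 and Foxo4, and in 6.54% of all genes. Igfbp1 averaged 7.54 ± 3.22 CPM in nanoplastic and 3.60 ± 1.12 CPM in vehicle (SD, n = 3 each), with a log2 fold change of 1.07 (SE 0.30, 95% interval 0.40 to 1.74). Its adjusted p was 0.501 with edgeR and 0.0534 with DESeq2, so neither passed, and it was 0.264 to 1 over the other fits. Its counts were low, at 95 to 267 expected counts per nanoplastic library and 55 to 118 per vehicle library, on a listed transcript of 1525 bases. Per length it averaged 2.24 TPM, above 46.1% of the genes tested. Nanoplastic 2 carried much of the difference, since the log2 fold change was 0.676 without it.

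Igfbp4 (ENSMUSG00000017493), a binding protein that mostly inhibits the growth factors, was the most abundant gene of the list and differed little. It measured 326.0, 411.6 and 351.0 CPM in nanoplastic mice, against 354.1, 332.3 and 393.7 CPM in vehicle mice. The libraries of both groups were interleaved, and the log2 fold change was 0.01 (95% interval -0.20 to 0.22, edgeR adjusted p = 0.989).

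Of the receptors, Igf1r (ENSMUSG00000005533), which binds insulin-like growth factors, measured 301.8, 274.1 and 339.0 CPM in nanoplastic mice, against 243.5, 253.3 and 311.9 CPM in vehicle mice. Vehicle 3 lay within the nanoplastic range and the other vehicle libraries below it. Its log2 fold change was 0.18 (SE 0.10, 95% interval -0.05 to 0.41, edgeR adjusted p = 0.728). Insr (ENSMUSG00000005534), the insulin receptor, measured 144.5, 146.7 and 150.3 CPM in nanoplastic mice, against 128.0, 134.9 and 154.6 CPM in vehicle mice. Here too vehicle 3 was the exception, being the highest of the 6. The log2 fold change of Insr was 0.08 (95% interval -0.09 to 0.25, edgeR adjusted p = 0.830). Without vehicle 3 it was 0.163 for Insr and 0.295 for Igf1r, and neither was called.

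Igf1r took 59.3%, 56.7% and 62.4% of the summed Insr and Igf1r TPM in nanoplastic mice, against 54.5%, 54.7% and 56.7% in vehicle mice. The lowest nanoplastic share and the highest vehicle share differed in the second decimal, at 56.73% and 56.70%. The mean share was 59.5% ± 2.84 in nanoplastic and 55.3% ± 1.23 in vehicle (SD, n = 3 each; exact two-sided permutation test, p = 0.1, the smallest that 3 against 3 allows). In expected counts, which are not per length, the difference was 1.46 percentage points in place of 4.17 (exact p = 0.4).

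Per-length values divide by the mean transcript length that RSEM assigned to a gene, which weights its annotated transcripts by their estimated use. For Insr, with 5 listed transcripts, it was 6010, 6091 and 5835 bases in nanoplastic mice, against 5627, 5698 and 5437 bases in vehicle mice. All nanoplastic values were above all vehicle values, with a mean difference of 391.5 bases (exact two-sided permutation test, p = 0.1; 0.3 after Benjamini-Hochberg adjustment over the 6 genes whose length varied). Foxo4, with 3 listed transcripts, was the other gene without overlap, at 3121, 3162 and 3058 bases in nanoplastic mice and 3005, 3036 and 3042 bases in vehicle mice (the same p values, exact test). That was 2 of 6 genes, against 10.2% of the 12381 protein-coding genes with a varying length. The deposited gene tables do not give the use of single transcripts. Irs1, Irs2, Foxo1 and Igfbp1 have 1 listed transcript each, so their length could not vary.

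**Figure D2:**
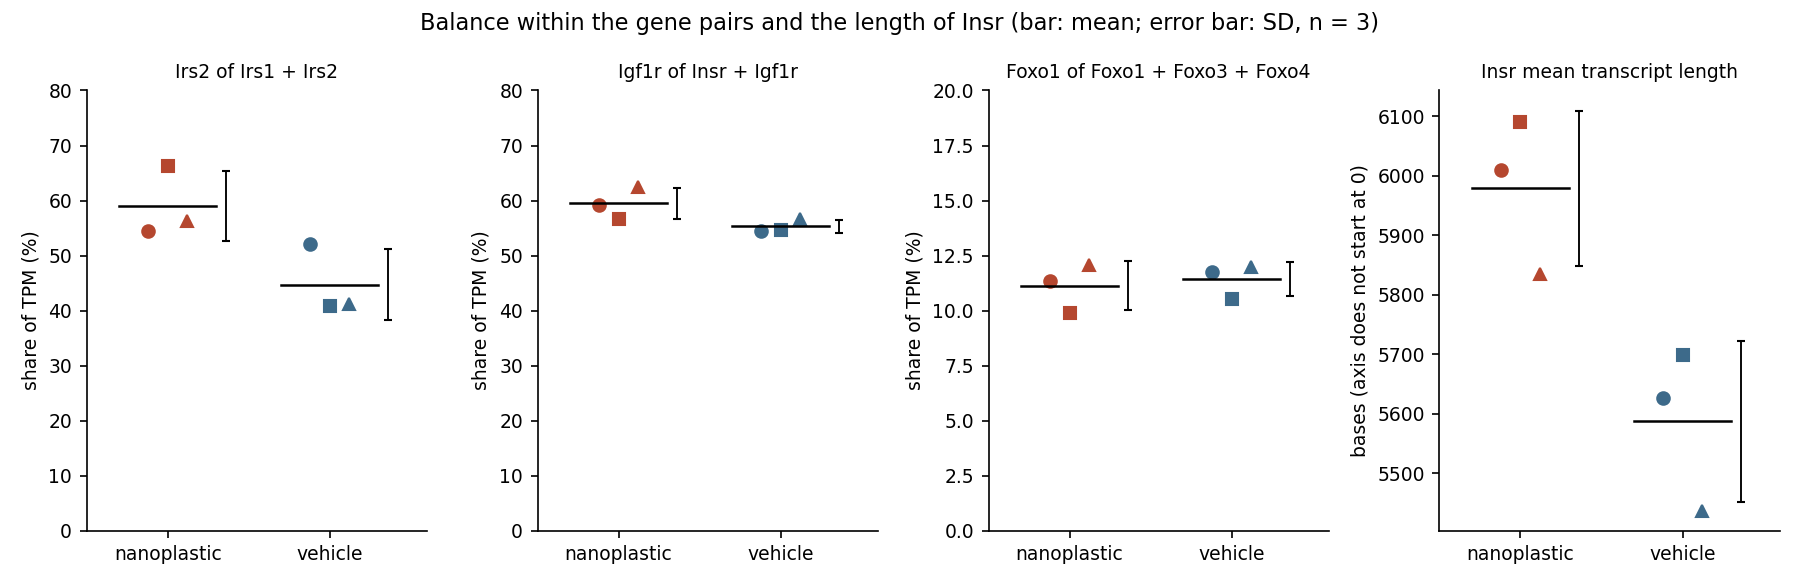
Share of Irs2, Igf1r and Foxo1 in the summed TPM of its gene group (%, axes from 0) and RSEM mean transcript length of Insr (bases, axis not from 0), with 1 point per mouse (circle, square and triangle for mice 1, 2 and 3 of each group), nanoplastic in red and vehicle in blue; bars are means and error bars SD (n = 3). Insr was longer in all 3 nanoplastic libraries (5835 to 6091 bases) than in vehicle (5437 to 5698 bases), and the Foxo1 shares overlap.

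Akt2 (ENSMUSG00000004056), the AKT isoform most tied to insulin-driven glucose uptake, measured 66.2, 60.5 and 67.2 CPM in nanoplastic mice, against 65.4, 63.3 and 60.3 CPM in vehicle mice. The groups overlapped, and the log2 fold change was 0.04 (95% interval -0.11 to 0.19, edgeR adjusted p = 0.923).

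The FOXO genes had small positive differences. Foxo3 (ENSMUSG00000048756) measured 94.9, 107.3 and 91.0 CPM in nanoplastic mice, against 85.3, 84.9 and 96.7 CPM in vehicle mice, with a log2 fold change of 0.14 (95% interval -0.04 to 0.32, edgeR adjusted p = 0.731). Vehicle 3 was again within the nanoplastic range. Foxo1 (ENSMUSG00000044167), the family member best known for driving glucose production in liver, measured 22.9, 21.3 and 24.1 CPM in nanoplastic mice, against 21.2, 19.3 and 23.6 CPM in vehicle mice. Its groups overlapped (log2 fold change 0.09, 95% interval -0.12 to 0.30, edgeR adjusted p = 0.846). Foxo1 shares bases on 1 strand with the annotated gene Gm38034, which had 169 to 185 counts in nanoplastic and 145 to 185 in vehicle libraries, so the division of reads between them is uncertain. Foxo4 (ENSMUSG00000042903) measured 16.3, 16.5 and 16.0 CPM in nanoplastic mice, against 14.9, 15.1 and 15.0 CPM in vehicle mice. Its libraries were the most even of the list within each group and did not overlap between groups, yet the size was a log2 fold change of 0.12 (95% interval -0.06 to 0.30, edgeR adjusted p = 0.769).

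Foxo3 was the most abundant of these factors per length, at 64.2% to 68.1% of the summed FOXO TPM in nanoplastic and 63.2% to 65.3% in vehicle libraries. Foxo1 took 11.1% ± 1.11 in nanoplastic and 11.4% ± 0.781 in vehicle (SD, n = 3 each; exact two-sided permutation test, p = 0.7). The small difference of -0.304 percentage points turned to 0.302 without nanoplastic 2.

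**Figure D3:**
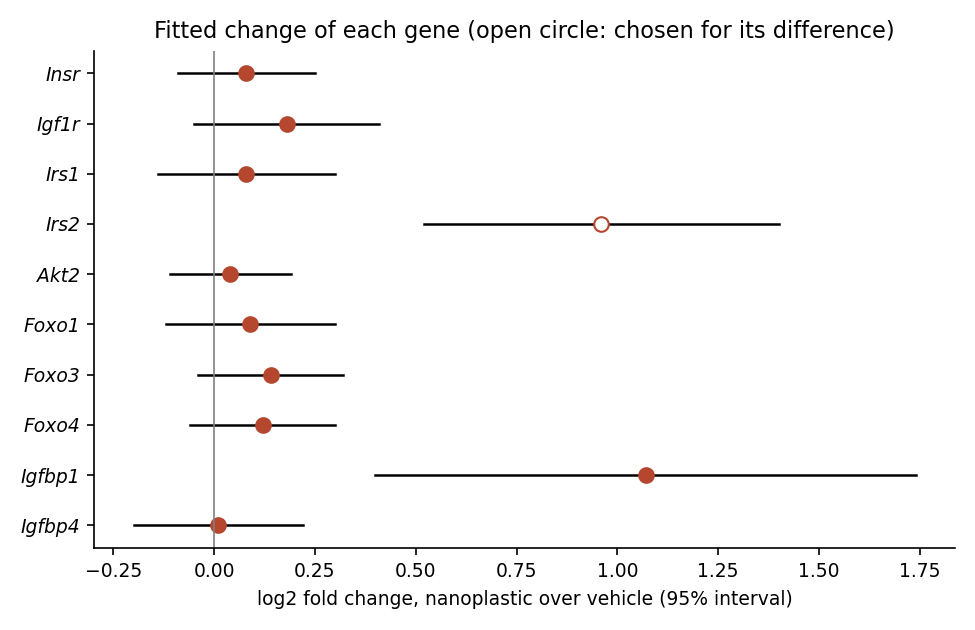
Fitted log2 fold change of nanoplastic over vehicle (horizontal axis) for the 10 genes, with 95% intervals from edgeR's fit of 3 libraries against 3; the open circle is Irs2, which was chosen for its difference. Igfbp1 (1.07) lies apart from the other genes tested, whose values run from 0.01 to 0.18 and whose intervals all include 0. Irs2 is at 0.96, and its interval does not allow for its choice by this same difference, so it is no test.

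All 9 tested genes had a positive log2 fold change, with a median of 0.09. Over all genes tested 52.0% were positive and the median was 0.01. The sign was not stable in 3 of them, since Irs1, Akt2 and Igfbp4 turned negative under at least 1 alternative. For Insr, Igf1r, Irs1, Foxo1, Foxo3 and Igfbp4 the highest vehicle library was vehicle 3. Nanoplastic 2 was the highest of its group in 6 of the 10 genes and nanoplastic 3 in the other 4.

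Ranked by mean TPM over the 6 libraries, the levels ran from Igfbp4 at 97.0 through Igf1r at 18.3, Insr at 13.4, Akt2 at 12.6, Foxo3 at 7.90, Foxo4 at 2.85, Irs2 at 2.66, Irs1 at 2.27 and Igfbp1 at 2.24 to Foxo1 at 1.36. Igfbp4 stood clear of Igf1r, Akt2 of Foxo3 and Foxo3 of Foxo4 in every library. The other neighbours overlapped in their ranges over libraries, among them Irs2, whose 1.38 to 5.07 TPM spanned those of Foxo4 and Irs1 and overlapped that of Igfbp1, at 0.87 to 4.66 TPM.

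The genes whose levels followed Irs2 most closely were Mturn, Zfp658, Mepce, Fbxo34 and Rhebl1, out of 12688 named protein-coding genes with a mean of at least 1 CPM. Their Pearson correlations with Irs2 in log2 CPM over the 6 libraries ran from 0.981 to 0.992, and all 5 ranked the libraries exactly as Irs2 did (Spearman rho of 1), which held for 35 genes in all. These correlations include the difference between groups for which Irs2 was chosen. Rhebl1, a relative of the small GTPase Rheb, measured 4.18, 6.93 and 4.99 CPM in nanoplastic mice, against 4.09, 3.38 and 3.65 CPM in vehicle mice. Within the list, Igfbp1 was the most like Irs2 (Pearson r = 0.94, Spearman rho = 0.94), ranking 69th, and Foxo4 came next (r = 0.86, rho = 0.71). Nanoplastic 2 was the highest and vehicle 2 the lowest of the 6 libraries for both Irs2 and Igfbp1.

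The wider pathway was described with 101 other genes in 10 lists ordered by role, of which 95 passed the count filter. With edgeR 0 of these 95 were called after adjustment in either direction, and 4 higher and 3 lower had an unadjusted p under 0.05, against 3.8% and 3.61% of all genes. DESeq2 called 1, Klf15, and limma-voom 0. Of the 95, 56 were positive and 39 negative, with a median log2 fold change of 0.03. Groups did not overlap in 6 genes with nanoplastic higher and 5 with nanoplastic lower, where 6.54% and 6.32% of all genes did so, 12.9% in either direction.

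**Figure D4:**
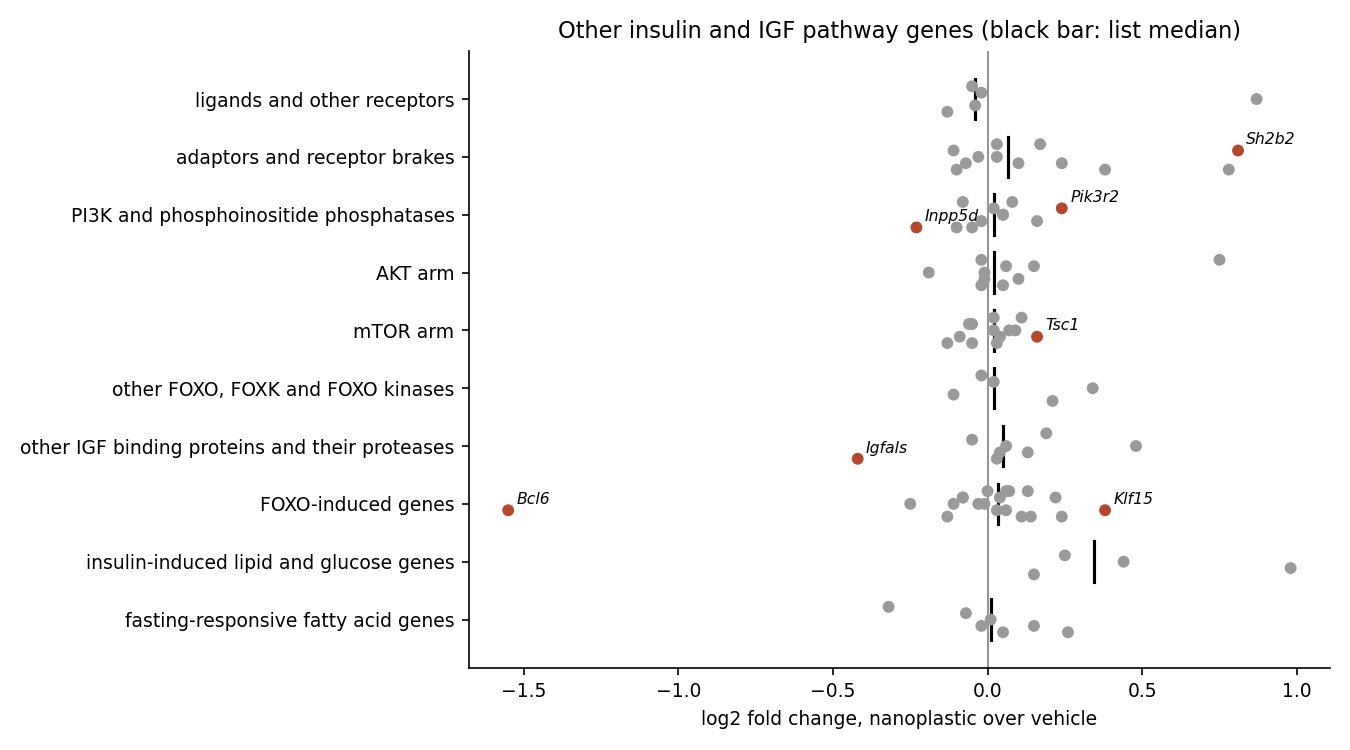
Log2 fold change of nanoplastic over vehicle (horizontal axis) for the 95 tested genes of the 10 other pathway lists, 1 point per gene, in red where the unadjusted edgeR p was under 0.05 and grey otherwise; black bars are list medians. Most genes lie near 0, with Bcl6 (-1.55) farthest to the left. The red points are labelled and are Sh2b2, Pik3r2, Tsc1 and Klf15 (higher) and Inpp5d, Igfals and Bcl6 (lower).

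Among 20 genes known as induced by FOXO factors, 11 were positive and 9 negative, with a median of 0.03. Klf15, a transcription factor that is active in fasting and in amino acid breakdown, measured 64.7, 73.4 and 66.9 CPM in nanoplastic mice, against 55.5, 47.1 and 54.4 CPM in vehicle mice. Its groups did not overlap, and its 6 libraries stood in the same order as for Irs2, as they did for 35 named genes in all. That order includes the difference between groups for which Irs2 was chosen, and Klf15 ranked 26th by Pearson correlation out of 12688 genes. The log2 fold change was 0.38 (SE 0.08), with an adjusted p of 0.319 in edgeR and 0.0258 in DESeq2, and 0.123 to 1 over the other fits. Bcl6, a transcriptional repressor, went the other way, at 23.0, 4.97 and 7.80 CPM in nanoplastic mice and 16.3, 47.1 and 43.7 CPM in vehicle mice. Nanoplastic 1 was above vehicle 1, so the groups overlapped (log2 fold change -1.55, SE 0.49, edgeR adjusted p = 0.541), and without nanoplastic 1 the value was -2.498. Pck1, the gluconeogenic enzyme phosphoenolpyruvate carboxykinase, averaged 889.0 ± 275.4 CPM in nanoplastic and 1058 ± 19.0 CPM in vehicle (SD, n = 3 each). Nanoplastic 1 and 2, at 593.9 and 934.0 CPM, lay under the vehicle range of 1041 to 1079 CPM, and nanoplastic 3, at 1139 CPM, above it. The log2 fold change of Pck1 was -0.25 (SE 0.18, edgeR adjusted p = 0.774). Pdk4, a brake on glucose oxidation, was at -0.08 (SE 0.18), the cell cycle inhibitor Ccng2 at 0.13 (SE 0.09) and the stress-responsive Sesn3 at 0.06 (SE 0.09).

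Ligands were scarce in kidney RNA. Ins1 and Ins2, the insulin genes, had 0 counts in all 6 libraries, which allows up to 3 counts in each, and Igf1 averaged 10.98 ± 1.64 CPM in nanoplastic and 11.3 ± 0.0216 CPM in vehicle (SD, n = 3 each). Igf2 measured 0.501 to 0.609 CPM in nanoplastic and 0.128 to 0.520 CPM in vehicle libraries. Ide, an enzyme that degrades insulin, measured 93.3 to 97.7 CPM in nanoplastic and 100.5 to 108.2 CPM in vehicle libraries without overlap (log2 fold change -0.13, SE 0.06, edgeR adjusted p = 0.684).

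Of 12 tested adaptors and receptor brakes, 8 were positive and 4 negative. Sh2b2, an adaptor of the insulin receptor, measured 1.22, 1.34 and 1.14 CPM in nanoplastic mice, against 0.585, 0.477 and 1.06 CPM in vehicle mice. These are low levels, and vehicle 3 came close to the nanoplastic libraries (log2 fold change 0.81, SE 0.33, edgeR adjusted p = 0.636). Of the adaptors that bind and inhibit the receptor, Grb14 was at 0.17 (SE 0.09) and Grb10 at -0.11 (SE 0.06), each without overlap of the groups. The phosphatase Ptpn1 was at -0.07 (SE 0.08), the feedback inhibitor Socs3 at 0.24 (SE 0.22) and the adaptor Dok1 at 0.38 (SE 0.20).

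Phosphoinositide 3-kinase genes and the matching phosphatases split into 6 positive and 5 negative. Pik3r2, a regulatory subunit, measured 30.1, 34.4 and 33.0 CPM in nanoplastic mice, against 28.7, 24.4 and 29.7 CPM in vehicle mice, with the lowest nanoplastic value just above the highest vehicle value (log2 fold change 0.24, SE 0.09, edgeR adjusted p = 0.611). Inpp5d, a phosphatase found mainly in blood cells, was at -0.23 (SE 0.10). The macrophage markers given further on were also lower, and their part in the level of Inpp5d was not tested. Pik3r1, the main regulatory subunit, was at 0.05 (SE 0.07), while the phosphatase Inpp5k was at 0.16 (SE 0.08).

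In the AKT arm Akt1 was at -0.02 (SE 0.06), the AKT substrate Gsk3a at 0.15 (SE 0.08) and the pseudokinase Trib3 at 0.75 (SE 0.42) on fewer than 1 CPM. In the mTOR arm Tsc1, a restraint on that kinase, measured 50.03, 53.0 and 54.5 CPM in nanoplastic mice, against 48.3, 45.5 and 47.2 CPM in vehicle mice, without overlap (log2 fold change 0.16, SE 0.07, edgeR adjusted p = 0.647). Sgk1, a kinase that also phosphorylates FOXO factors, was at 0.34 (SE 0.21), with 88.2 CPM in nanoplastic 1 and 41.9 to 65.6 CPM in the other 5 libraries, and at -0.040 without vehicle 3 and nanoplastic 1. Foxk1 and Foxk2 were at 0.21 (SE 0.14) and -0.11 (SE 0.07).

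Of the other growth factor carriers, Igfbp3 and Igfbp5 were at 0.06 (SE 0.07) and -0.05 (SE 0.09). Igfals, which stabilises circulating growth factor complexes, measured 6.21, 10.3 and 8.32 CPM in nanoplastic mice, against 12.8, 11.01 and 9.30 CPM in vehicle mice, with overlap (log2 fold change -0.42, SE 0.18, edgeR adjusted p = 0.662). All 4 tested genes that insulin induces were positive, with Srebf1, a regulator of lipid synthesis, at 0.25 (SE 0.12) and the hexokinase Hk2 at 0.98 (SE 0.53). Hk2 measured 3.09 CPM in nanoplastic 1 and 0.468 to 1.19 CPM in the other 5 libraries, and its log2 fold change was 0.108 without nanoplastic 1. Of the 4 genes, 3 (Hk2, Fasn and Pnpla3) were highest of all 6 libraries in nanoplastic 1, which also had the highest adipocyte marker sum, 209.2 CPM. Fasn and Pnpla3 are named after their values were seen, and the part of adipocyte RNA in the sign of this list was not tested. Among fasting-responsive fatty acid genes 4 were positive and 3 negative, with a median of 0.01.

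Some cell type markers moved with the groups. In bulk RNA fewer cells of a type and less RNA per cell cannot be told apart. Adipocyte markers summed to 209.2 CPM in nanoplastic 1 and 73.2 CPM in vehicle 3, and to 30.7 to 39.0 CPM in the other 4 libraries, and 7 of the 8 markers (all but Fabp4) were under 0.05 CPM in at least 1 library. Without both of these libraries the log2 fold change was 1.135 for Irs2 and 1.224 for Igfbp1. Nanoplastic 1 had the lowest Irs2 level of its group, 30.7 CPM, so the value of Irs2 rises when it is left out, whatever its adipocyte content. Summed markers of 7 macrophage genes were 90.8 to 95.7 CPM in nanoplastic and 100.2 to 109.2 CPM in vehicle, with 7 of 7 negative. Those of 6 thick limb and distal tubule genes were 4832 to 5495 CPM in nanoplastic and 5510 to 6475 CPM in vehicle, with 4 of 6 negative. Those of 8 collecting duct genes were 303.3 to 370.5 CPM in nanoplastic and 288.0 to 298.7 CPM in vehicle, with 5 of 8 positive. Summed erythrocyte markers were 487.6 to 625.8 CPM in nanoplastic and 579.2 to 860.5 CPM in vehicle, with overlap and with 5 of 5 negative. All 5 had an unadjusted edgeR p under 0.05, where 7.42% of all genes did in either direction. So did 2 of 7 macrophage, 2 of 6 thick limb and distal tubule, 1 of 8 collecting duct, 1 of 7 fibroblast and mural cell and 1 of 10 proximal tubule markers. Summed markers of 5 urothelium genes were 17.4 CPM in nanoplastic 1, 2.51 and 2.86 CPM in nanoplastic 2 and 3, and 1.70 to 5.46 CPM in vehicle. Of these, 3 passed the count filter and all 3 were positive. Of 4 adrenal cortex markers, Cyp11b1 and Cyp21a1 were at 0 in all libraries. The 10 proximal tubule markers summed to 35130 to 41790 CPM in nanoplastic and 40620 to 43290 CPM in vehicle, and all 10 passed the count filter. The part of these cell types in the levels of Irs2 and Igfbp1 was not tested.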

How the data were processed

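RNA of whole kidneys from 3 mice per group was sequenced with Illumina chemistry, per the labels' protocols. The tools named in the submitters' processing notes are RSEM 1.3.3, the aligner STAR 2.7.9a, Trim Galore 0.6.6 and FastQC, with GRCm39 as the build. Neither an annotation release nor a strand setting is stated there. Each library has its own RSEM gene table from the authors, holding per the file headers an expected count, TPM, FPKM and mean transcript length for every gene. Expected counts as deposited carry no scaling, and 10.4% to 11.1% of a library's values had a fraction. TPM deposited by the authors was used to compare genes within a library, since Rn7s1 and Rn7s2 take 55.5% to 59.4% of it. FPKM deposited by the authors was used in 1 alternative.

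Symbols came from a gene name table (51884 IDs) and from transcript IDs (809). Counts were rounded. After filterByExpr and TMM scaling, edgeR 4.0.16 in R 4.3.3 fitted a quasi-likelihood model with group alone, and p-values of 18092 genes were adjusted by Benjamini-Hochberg and called at 0.05. The SE is the size of the log2 fold change divided by the square root of F. The step was tested on simulated counts of 18092 genes, with 50 genes changed at each size. It called 18% of those changed 1.25-fold, 60% at 1.5-fold, 84% at 2-fold and 96% at 3-fold, with 10 false calls in the whole run. Most changes of 1.25-fold were thus missed. DESeq2 1.42.0, limma 3.58.1, other scalings and filters, a replicate block and left-out libraries were alternatives. Intervals from the fit cover variation between these mice and counting error.

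The members, the gene lists and the tests were chosen with earlier results of these data known. Named genes are the members, the 3 of lowest p in each list, a fixed set, and the 5 most like Irs2 by Pearson correlation. Some genes that the rule takes are not reported here.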

Additional observations from a re-analysis of the deposited data

How the results depend on the processing

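The counts of called genes were 0 for the 9 tested members under every alternative fitted, and for the other pathway genes under every one except DESeq2, which called 1 (Klf15, log2 fold change 0.378, adjusted p = 0.0258). Over all genes edgeR called 0 to 10 with a library left out, 30 without vehicle 3 and nanoplastic 1, the libraries with the highest adipocyte marker sums, and DESeq2 called 55. The cause of these differences was not tested. Igfbp1 kept its direction, from 0.676 without nanoplastic 2 to 1.295 without vehicle 1. Of 653 values for 41 genes, 633 kept their direction and, where an adjusted p was given, their side of the threshold. Irs2, which had no test, was judged by its size alone. In sign 19 values turned, in 11 genes whose fitted values were mostly near 0. With a library left out, values ran from -0.018 to 0.188 for Irs1, from -0.089 to 0.085 for Igfbp4, from -0.135 to 0.067 for Igf1, from -0.002 to 0.105 for Pik3r1, from -0.039 to 0.002 for Akt1, from -0.154 to 0.041 for Igfbp5, from -0.232 to 0.099 for Pdk4 and from -0.030 to 0.139 for Sesn3. Without vehicle 3 and nanoplastic 1, Akt2 was at -0.009 and Sgk1 at -0.040. Scaled by library size alone, Igf1 was at 0.010 and Akt1 at 0.021. On log2(TPM + 0.1), Ide was at 0.021, Pik3r1 at -0.016, Akt1 at 0.025 and Igfbp5 at 0.005. The Foxo1 share differed by -0.789 to 0.302 percentage points and the Igf1r share by 2.703 to 5.542 with a library left out. Members without overlap in transcript length numbered 4 without vehicle 3 and 2 or 3 with any other library left out. Fewer samples make overlap rarer in all of these runs, and why vehicle 3 differed was not tested.

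Same-numbered libraries of the groups had correlations of 0.04, -0.02 and 0.10 in their deviations from the group means, so the numbers were not taken as pairs. With the replicate number as a block edgeR called 0 genes, 0 members and 0 pathway genes, and not every library correlated best with its own number.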
